A study of Mus musculus with 14 samples.

Results

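Malat1, Neat1, Meg3, Miat and Snhg11 are 5 long noncoding RNAs that stay largely in the nucleus. They were taken by gene symbol, as a list, from the mouse brain libraries of a study of morphine, 5 genes out of 24819 symbols in the single-cell tables and 32920 in the sorted-cell table. All animals were male C57BL/6 mice given morphine sulfate or, as the mock group, saline by intraperitoneal injection. The dose and the time between injection and collection are not given in the labels used here. Single cells came from the nucleus accumbens, the ventral striatal region of the reward circuit, by Drop-seq, in 4 morphine pools and 4 mock pools of 2 mice each. In both groups replicates 3 and 4 were mice of 78 to 82 days and replicates 1 and 2 were mice of 37 to 45 days. Separately, oligodendrocytes were sorted from whole brain of mice of 70 days and their RNA was sequenced in 3 morphine libraries and 3 mock libraries.

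Malat1 lies in nuclear speckles, where splicing factors gather, and is among the most abundant nuclear transcripts of most cells. Neat1 is the scaffold of paraspeckles, bodies that hold RNA-binding proteins such as Sfpq and Nono, and is known for its response to cell stress. Meg3 is made from the maternal copy of the imprinted Dlk1-Dio3 domain, Miat (also called Gomafu) forms its own nuclear domains in neurons and progenitors, and Snhg11 is a host gene of small nucleolar RNAs that neurons express.

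The sequences at the 3′ ends bear on what each assay could read, because Drop-seq captured RNA by its poly(A) tail while the sorted cells were labelled as total RNA. In the GENCODE vM21 annotation of GRCm38, Malat1 covers chr19:5795690-5802672 on the minus strand with 6983 exonic bases and Neat1 covers chr19:5824708-5845478 on the same strand with 20771, and 22035 bases separate them. Meg3 covers chr12:109541001-109571726 on the plus strand with 18089 exonic bases in 11 transcripts. Miat covers chr5:112213228-112229395 on the minus strand with 9293 exonic bases, and Snhg11 covers chr2:158375638-158386145 on the plus strand with 8521. GENCODE types Snhg11 as protein-coding and RefSeq types it as a long noncoding RNA. The last 60 bases of 5 annotated transcripts are printed 5′ to 3′, with a polyadenylation signal (AATAAA or ATTAAA) in capitals, because they show which ends carry one.
Malat1 (chr19:5795690-5795749, minus strand): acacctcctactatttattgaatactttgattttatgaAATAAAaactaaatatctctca
Neat1, short transcript (chr19:5842307-5842366, minus strand): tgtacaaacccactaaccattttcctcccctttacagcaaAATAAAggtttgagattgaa
Neat1, long transcript (chr19:5824708-5824767, minus strand): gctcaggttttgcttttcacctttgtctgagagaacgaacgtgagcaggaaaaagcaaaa
Meg3 (chr12:109571662-109571721, plus strand): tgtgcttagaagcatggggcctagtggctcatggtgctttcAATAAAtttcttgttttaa
Miat (chr5:112213230-112213289, minus strand): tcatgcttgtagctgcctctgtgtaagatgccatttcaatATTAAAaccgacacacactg
The short Neat1 transcript, of 3004 bases, held an AATAAA starting 20 bases before its end. The long transcript, of 20771 bases, held neither signal in this window. The long form is known to end without a poly(A) tail, by the same kind of cleavage that releases a tRNA-like small RNA from Malat1. The files give 1 Neat1 value per sample, so the short and long forms cannot be told apart in either assay.

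An oligo(dT) primer can also bind a run of A inside a transcript, so the longest such run of Malat1 is shown with 20 bases on each side, the run in capitals.
Malat1, a run of 12: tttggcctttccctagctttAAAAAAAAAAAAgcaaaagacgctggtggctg
The Malat1 run ended 298 bases before the annotated end, and it belongs to the A-rich tract of the mature nuclear RNA, just ahead of the tRNA-like small RNA. Meg3 held a longer run, of 16, which ended 14113 bases before the end of its transcript. The longest runs of the remaining members were 9 in Snhg11, 7 in Neat1 and 4 in Miat. Small RNA genes lie inside every member on the same strand, from 1 in Malat1 to 4 in Meg3 and Miat. Antisense genes overlap Malat1 (Gm37376), Meg3 (Gm26906) and Miat (Gm26953), and whether counting used the strand is not given in the sources used here, so reads of a gene and its antisense partner may not have been told apart.

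The promoters of Malat1 and Meg3 are shown because these members stood apart in level and in cell type. The windows run from 250 bases before to 50 bases after the start site, on the strand of the gene, from RefSeq on GRCm38.p6. Motifs were searched on both strands, and matches are in capitals.
Malat1 (chr19:5802623-5802922, minus strand): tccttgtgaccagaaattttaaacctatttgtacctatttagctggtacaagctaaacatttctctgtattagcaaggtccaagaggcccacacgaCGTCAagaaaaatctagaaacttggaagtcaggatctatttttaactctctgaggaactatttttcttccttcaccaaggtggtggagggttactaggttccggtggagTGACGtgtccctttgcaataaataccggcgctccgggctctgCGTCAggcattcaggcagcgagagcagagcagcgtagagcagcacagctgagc
Meg3 (chr12:109540746-109541045, plus strand): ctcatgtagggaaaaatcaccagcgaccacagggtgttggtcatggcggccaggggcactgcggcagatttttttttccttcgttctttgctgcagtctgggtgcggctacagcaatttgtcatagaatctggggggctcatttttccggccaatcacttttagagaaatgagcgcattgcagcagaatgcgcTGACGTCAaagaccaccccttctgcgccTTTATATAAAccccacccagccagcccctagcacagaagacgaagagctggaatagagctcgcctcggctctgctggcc
The Meg3 window held the cAMP response element TGACGTCA, starting 57 bases before the start site, a motif present in 1.79% of the 32851 promoter windows of the table. It also held 2 overlapping TATA boxes (TATAAA, 13.6% of windows), starting 29 and 25 bases before the start site. The Malat1 window held 3 half-sites of that element (TGACG, 20.8% of windows), starting 154, 45 and 3 bases before the start site, and no TATAAA. The half-site matches in Meg3 lie inside the full element. The glucocorticoid receptor half-site AGAACA (18.97% of windows) was in none of the 5 windows that matched 4 of the 5 members. Neat1 had no window.

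The accumbens data held 31651 cells after 1574 probable doublets were removed, 2677 to 5570 cells and 6330663 to 22633144 unique molecular identifiers (UMIs) per pool. Cells were clustered again and named from marker genes, since no annotation was used, and 27601 of them fell into 15 classes that could be tested. Another 3927 cells were in clusters left unnamed. Each sorted library had between 14989118 and 23456702 reads assigned to genes. In the accumbens the median share of mitochondrial UMIs per cell was 4.77 to 6.995% in morphine pools and 3.01 to 4.597% in mock pools, without overlap. Levels are given as CPM, the count of a gene scaled to 1000000 UMIs of a class or 1000000 reads in genes.

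In the sorted oligodendrocytes, Neat1 and Snhg11 fell with morphine, Malat1 did not pass the test, and Meg3 and Miat did not either. Neat1 stood at 868, 915 and 909 CPM in the morphine libraries, against 1256, 1069 and 1451 CPM in the mock libraries. Every morphine library was below every mock library, and the mock libraries were spread more widely. The means were 897 ± 25.5 CPM with morphine and 1259 ± 191 CPM with mock (SD, n = 3 each), and Neat1 fell by 27.4% in the fit with TMM scaling, a log2 difference of -0.46 (SE 0.0715, adjusted p = 6.01e-05 by edgeR's quasi-likelihood test with Benjamini-Hochberg adjustment over 15741 genes). In that test 14.7% of all genes passed, and 6.66% were lower with morphine, so 2 of 5 members passing is to be read against a large background. The authors' deposited table gives a log2 fold change of -0.43 for Neat1, with an adjusted p of 4.82e-05. With a bulk measurement, fewer cells of a type and less RNA per cell cannot be told apart. Nothing in the labels says that the sorted libraries are separate mice, so these p-values measure the spread between the libraries.

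Snhg11 stood at 53.0, 57.6 and 51.8 CPM in the morphine libraries, against 66.5, 60.8 and 66.9 CPM in the mock libraries. The groups did not overlap, though the gap between the highest morphine library and the lowest mock library was small. The means were 54.2 ± 3.07 CPM with morphine and 64.8 ± 3.40 CPM with mock (SD, n = 3 each), and Snhg11 fell by 15.1% in the fit, a log2 difference of -0.24 (SE 0.0685, adjusted p = 0.0222 by edgeR's quasi-likelihood test with Benjamini-Hochberg adjustment). The call was lost with DESeq2 (adjusted p = 0.156) and without the low-count filter (adjusted p = 0.0680). It was also lost without morphine library 1 (adjusted p = 0.0991), morphine library 3 (0.184), mock library 1 (0.153) or mock library 3 (0.0771), all by edgeR. The authors' deposited table gives -0.20 for Snhg11, with an adjusted p of 0.154.

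Meg3 stood at 43.1, 51.5 and 41.7 CPM in the morphine libraries, against 55.1, 48.0 and 59.7 CPM in the mock libraries. Morphine library 2 was above mock library 2, so the groups overlapped. The log2 difference was -0.24 (SE 0.0866, adjusted p = 0.0781 by edgeR's quasi-likelihood test with Benjamini-Hochberg adjustment). By edgeR it passed without morphine library 2 (adjusted p = 0.0360) or mock library 2 (adjusted p = 0.00209). It did not pass by edgeR with any other library left out (adjusted p = 0.260 to 0.394) or with DESeq2 (adjusted p = 0.317). The authors' deposited table gives -0.20 for Meg3, with an adjusted p of 0.315. Malat1 stood at 13624, 13687 and 13375 CPM in the morphine libraries, against 14261, 13395 and 14394 CPM in the mock libraries. These 6 values lay close together and overlapped, with a log2 difference of -0.02 (SE 0.0403, adjusted p = 0.814 by the same edgeR test). Miat was near the limit of counting, with 19 to 43 reads per library and 1.63, 1.91 and 1.24 CPM with morphine against 1.53, 2.87 and 1.03 CPM with mock. Its log2 difference was -0.14 with an SE of 0.361, wider than the difference itself.

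**Figure D1:**
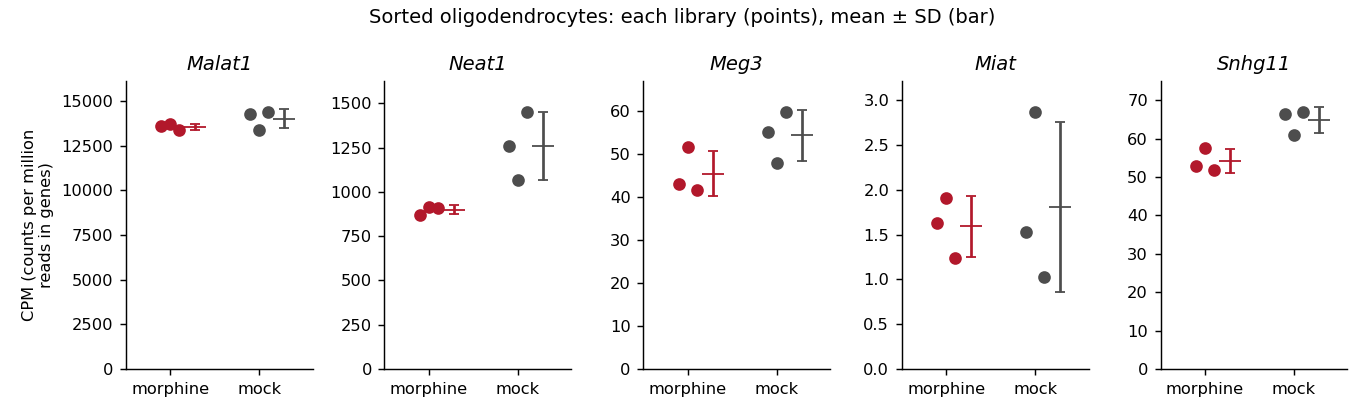
CPM of each member in the 3 morphine and 3 mock libraries of sorted oligodendrocytes (points), with the mean ± SD beside them, on axes that start at 0. The groups are apart for Neat1 and Snhg11 and overlap for Malat1, Meg3 and Miat.

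Per kilobase of exon, Malat1 was far above the other members in these cells, at 1942 CPM per kb with morphine and 2007 with mock. Neat1 followed at 43.2 and 60.6 CPM per kb, then Snhg11 at 6.36 and 7.60, Meg3 at 2.51 and 3.00, and Miat at 0.171 and 0.195. Malat1 alone took 1.36% of the reads in genes with morphine and 1.402% with mock.

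Markers of other cell types were present in the sorted libraries, at sums far below those of oligodendrocyte markers, and some passed the test, in which 6.66% of all genes were lower with morphine and 14.7% passed in either direction. The summed level of 12 endothelial markers was 53.6 to 72.7 CPM with morphine and 84.0 to 90.1 CPM with mock, none was at 0, and 4 of the 12 fell. The sum of 12 astrocyte markers was 649.8 to 704 CPM with morphine and 619.5 to 745 CPM with mock, with 4 risen and 1 fallen, and that of 12 microglia markers was 78.1 to 82.4 CPM with morphine and 76.3 to 94.9 CPM with mock, with 2 fallen. No marker of either list was at 0. Neat1 was read in accumbens endothelial cells and astrocytes, and the part of these cells in the fall of Neat1 was not tested. The sum of 12 pan-neuronal markers was 61.7 to 66.6 CPM with morphine and 61.4 to 75.3 CPM with mock, with 0 of 12 called and none at 0. Meg3 and Snhg11 levels in these libraries were close to that sum. In the accumbens neuronal classes, read by Drop-seq, Snhg11 over the same sum was 0.064 to 0.132 and Meg3 over it was 0.101 to 0.253. The part of neuronal RNA in the Meg3, Snhg11 and Miat levels, and in the Snhg11 result, was not tested. The sum of 12 oligodendrocyte markers was 60168 to 61181 CPM with morphine and 56952 to 59922 CPM with mock.

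Of 20 paraspeckle proteins tested, 3 fell and 0 rose, where 14.7% of all genes passed and 6.66% fell. They were Fam98a (log2 difference -0.37), Sfpq (-0.24) and Nono (-0.23), the last 2 being core proteins that bind Neat1. The list's median of -0.06 stood beside -0.02 over all genes. Of 27 genes on a list of nuclear speckle proteins, serine-arginine proteins and other splicing regulators, 1 fell and 0 rose, beside the same 6.66% of genes that fell, with a median of 0.00. The gene that fell was one of the other regulators. It was Qk, an RNA-binding protein of oligodendrocytes needed for myelin, at 3327 ± 44.0 CPM with morphine and 4616 ± 120 CPM with mock (SD, n = 3 each, log2 difference -0.45, adjusted p = 1.32e-07 by edgeR's quasi-likelihood test with Benjamini-Hochberg adjustment). The splicing factors Srsf10 and Srsf5 came next, at -0.31 and 0.24, and did not pass. Of 9 mitochondrially encoded genes tested, 1 rose and 0 fell, the ribosomal RNA mt-Rnr1 (log2 difference 0.14), while mt-Nd2 (-0.23) and mt-Rnr2 (0.09) did not pass.

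Of the RNAs that share the imprinted domain with Meg3, 5 of 6 were tested, and all 5 were lower with morphine. Their median was -0.65, beside -0.02 over all genes. The share of all genes that lay below 0 is not given here, and 6.66% passed as lower. One passed, Rian, another maternally expressed noncoding RNA of the domain (log2 difference -0.68, adjusted p = 0.0477 by edgeR's quasi-likelihood test with Benjamini-Hochberg adjustment), at 2.61 ± 0.276 CPM with morphine and 4.31 ± 1.27 CPM with mock (SD, n = 3 each). Dlk1, which encodes a Notch-like membrane protein, was at -1.60 (adjusted p = 0.0534) and the microRNA host Mirg at -0.57 (adjusted p = 0.265), by the same edgeR test. These RNAs were read at a few CPM, so their counting error is large. Of 36 other long noncoding RNAs tested, 4 rose and 2 fell, a share near the 14.7% of all genes that passed. Zfas1, a host gene of small nucleolar RNAs like Snhg11, rose by a log2 difference of 1.13 where Snhg11 fell, and Epb41l4aos rose by 1.08. Sox2ot, which overlaps the stem cell gene Sox2, fell by 1.06 on the log2 scale (172 ± 3.19 CPM with morphine, 363 ± 11.8 CPM with mock, SD, n = 3 each). Over all accumbens cells 0% of genes passed, so none of these lists had a called gene there. The lists were also read in 2 accumbens classes, oligodendrocytes and astrocytes. In each, 1 of 9 mitochondrially encoded genes rose, where 11 of 8365 and 3 of 7769 genes rose. The medians of that list were 0.18 and 0.17, beside -0.01 over all genes in each class. The other lists had no called gene in either class.

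Across the accumbens, each member had its own distribution over cell classes. Malat1 was high everywhere, from 16890 ± 4460 CPM in perivascular macrophages, 16851 ± 6682 in astrocytes and 16754 ± 7256 in newly formed oligodendrocytes down to 5356 ± 1549 in excitatory neurons and 5342 ± 1951 in interneurons (SD over pools with at least 10 cells of the class, n = 7 or 8). No class differed from the next in this order by more than the larger of their SDs. Pools moved together, however, and D2 medium spiny neurons (10111 ± 3424 CPM) exceeded D1 medium spiny neurons (8434 ± 2752 CPM) in 8 of 8 pools. Of the D2 class, 25.1% of morphine and 20.8% of mock cells were in a cluster with a median of 986 UMIs and mt-Rnr1 among its leading genes. The clusters of the D1 class had medians of 3083 and 3640 UMIs, and the part of this low-depth cluster in the order was not tested. By mean level, glial and vascular classes lay above the 4 neuronal classes, with dividing progenitors (6880 ± 2128 CPM) among the neurons. Endothelial cells (12077 ± 4447 CPM), the lowest of the glial and vascular classes, exceeded D2 medium spiny neurons in 6 of 8 pools. Neuroblasts (13975 ± 4557 CPM) exceeded endothelial cells in 7 of 8 pools.

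Neat1 was highest in oligodendrocytes, at 246 ± 110 CPM, followed by endothelial cells at 186 ± 23.6, perivascular macrophages at 162 ± 162, ependymal cells at 155 ± 87.6, mural cells at 140 ± 62.0 and astrocytes at 121 ± 31.7. The one step beyond the larger SD came next, between astrocytes and microglia (56.8 ± 12.6 CPM), and it held in 8 of 8 pools. Within the oligodendrocyte lineage the level was 26.0 ± 19.9 CPM in precursors, 41.9 ± 23.0 in newly formed cells and 246 ± 110 in mature cells. The 4 neuronal classes had 10.6 to 12.7 CPM. That is about the level read in red blood cells, which have no nucleus (10.1 CPM over 123 cells, from 3 UMIs), so a Neat1 signal in neurons was not detectable above background at this depth.

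**Figure D2:**
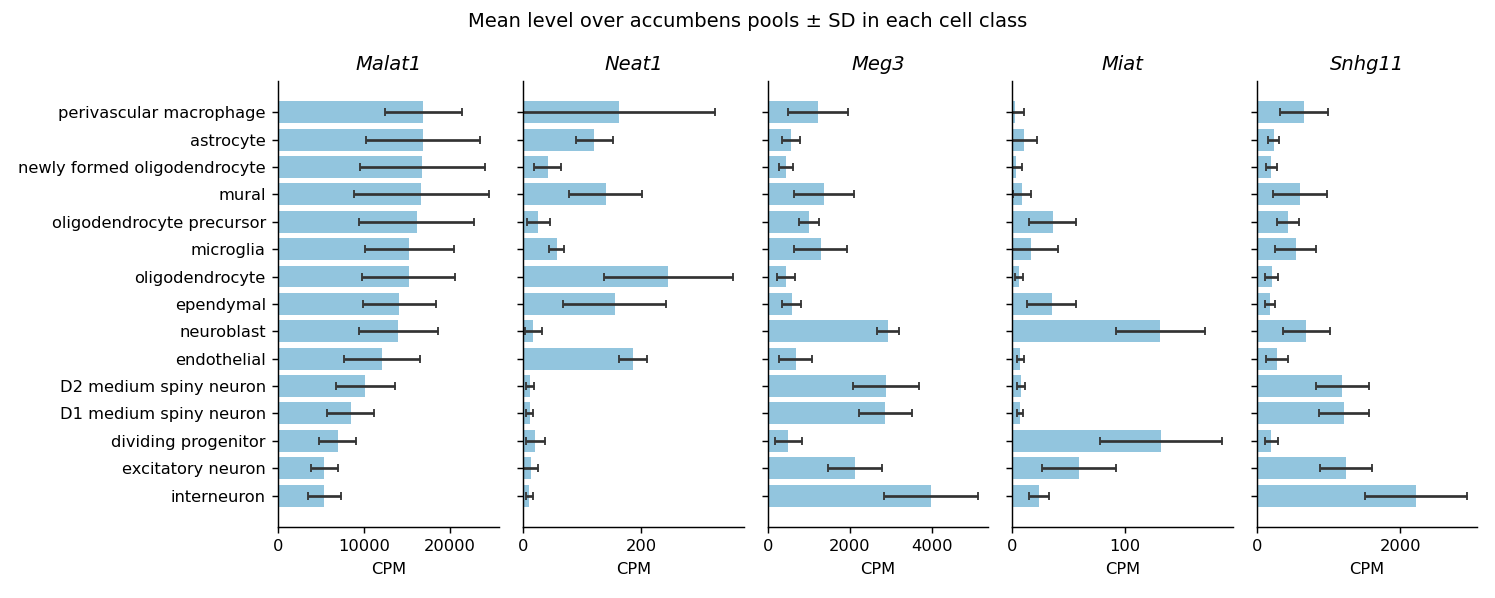
Mean CPM of each member over pools (bars, ± SD) in the 15 accumbens cell classes, ordered by the Malat1 level. Malat1 is spread over all classes, Neat1 is high in oligodendrocytes, endothelial cells and other non-neuronal classes, Meg3 and Snhg11 are high in neurons, and Miat is high in dividing progenitors and neuroblasts.

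Meg3 and Snhg11 were neuronal and followed each other. Meg3 was highest in interneurons (3977 ± 1149 CPM), then in neuroblasts (2933 ± 270), D2 medium spiny neurons (2890 ± 810), D1 medium spiny neurons (2867 ± 651) and excitatory neurons (2134 ± 659). The last step, and the step from excitatory neurons to mural cells (1379 ± 726), exceeded the larger SD. Snhg11 was highest in interneurons (2224 ± 708 CPM), beyond the larger SD above excitatory neurons (1247 ± 365), D1 (1215 ± 348) and D2 medium spiny neurons (1196 ± 372). Neuroblasts had 690 ± 330 CPM of Snhg11, below D2 neurons in 8 of 8 pools. Over 15 classes the Pearson correlation of log2 levels was 0.95 between Meg3 and Snhg11 and 0.68 between Malat1 and Neat1, as a description of classes that share the same pools.

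Outside neurons, Meg3 and Snhg11 did not exceed their level in red blood cells. Red blood cells, summed over pools, held 2373 CPM of Meg3 and 867 CPM of Snhg11, along with 7380 CPM of the 12 pan-neuronal markers. All 10 non-neuronal classes were below them, at 417 to 1483 CPM of Meg3 and 184 to 661 CPM of Snhg11, so expression of their own could not be told from background. A level below that of red blood cells does not show that the RNA is absent, since the share of free RNA in each class was not measured. Excitatory neurons, at 2266 CPM of Meg3, were also below the red blood cells, and for Malat1 so were excitatory neurons (5619 CPM) and interneurons (5499 CPM), against 6748 CPM in red blood cells. Meg3 over Snhg11 was 2.74 in red blood cells and 2.19 to 2.36 in oligodendrocytes, microglia, mural cells, endothelial cells and astrocytes, close to the 2.37 of D1 and 2.42 of D2 medium spiny neurons. Farthest from this ratio were neuroblasts at 5.09, ependymal cells at 3.23, interneurons at 1.75 and excitatory neurons at 1.58. Neuroblasts, the migrating young neurons, therefore held Meg3 at the level of medium spiny neurons with less Snhg11.

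**Figure D3:**
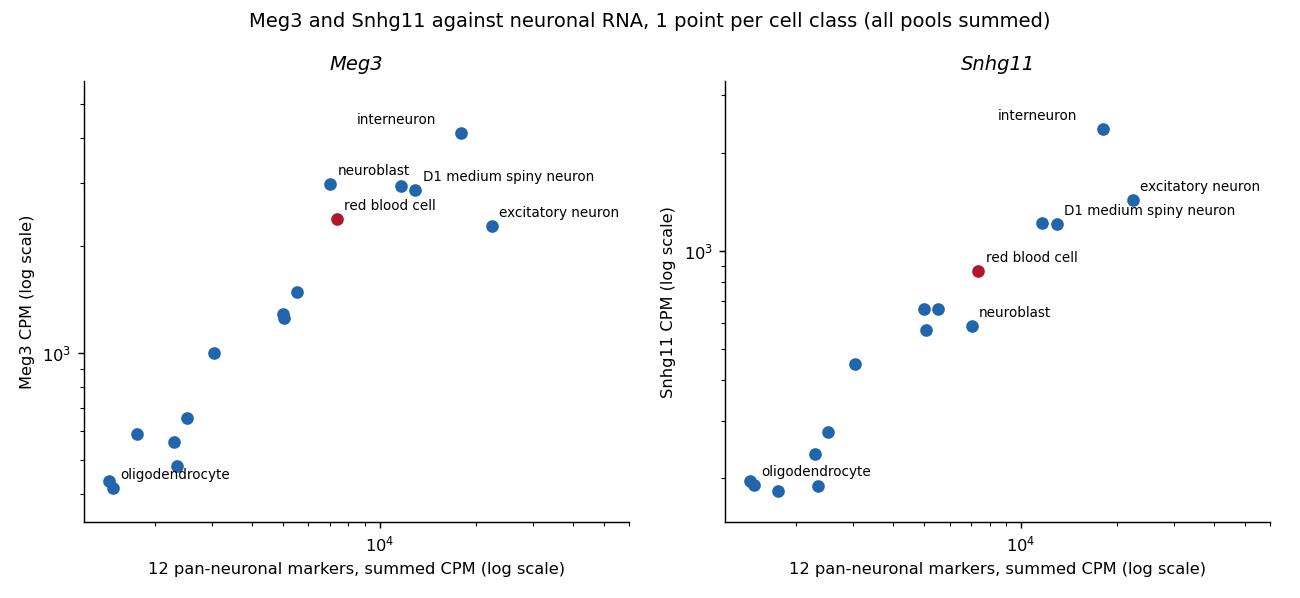
Level of Meg3 and Snhg11 (CPM, log scale) against the summed level of 12 pan-neuronal markers (CPM, log scale), 1 point for each of 15 cell classes and for red blood cells (red), all pools summed. Non-neuronal classes lie at the lower left, below the red blood cells, and neuroblasts stand above the trend for Meg3.

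Miat was read at far lower levels, highest in dividing progenitors (132 ± 54.3 CPM) and neuroblasts (132 ± 39.2 CPM), beyond the larger SD above excitatory neurons (59.4 ± 33.3 CPM). Oligodendrocyte precursors had 36.0 ± 20.7, ependymal cells 35.1 ± 22.0 and interneurons 24.04 ± 8.84 CPM. D1 and D2 medium spiny neurons had 7.26 ± 2.69 and 7.67 ± 3.58 CPM, below the 10.1 CPM of red blood cells, where 3 UMIs were read. The genes closest in pattern over the 15 classes, among 12560 compared by Pearson's r of log2 levels, were Tubgcp2 (0.91), BC068157 (0.90) and Tsn (0.90) for Miat. They were Cplx1 (0.98) and Gria1 (0.98) for Snhg11, and Celf4 (0.97), Nrxn3 (0.97) and Ina (0.96) for Meg3, which are genes of neurons. For Neat1 they were Pon2 (0.93), Plin3 (0.92) and Pnpla2 (0.90), and for Malat1 Rest (0.87), Rsrp1 (0.80) and Cyp4f13 (0.80). Rest is the repressor of neuronal genes in non-neuronal cells, and Plin3 and Pnpla2 act on lipid droplets.

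With morphine, Malat1 was higher on average in every accumbens class, and no class passed the main test, which does not pair pools, after adjustment. Over all cells it stood at 11440, 8662, 15545 and 12816 CPM in morphine pools 1 to 4, against 6724, 5655, 8759 and 9632 CPM in mock pools 1 to 4. Morphine pool 2 was below mock pools 3 and 4, so the groups overlapped. Each morphine pool was above the mock pool of the same number, and same-numbered pools share an age range. The log2 difference was 0.72 (SE 0.256, adjusted p = 1.00 by edgeR's quasi-likelihood test with Benjamini-Hochberg adjustment over 15024 genes). In that test 0% of genes passed, 242 had an unadjusted p under 0.05, and DESeq2 called 4 of 24553. With each of the 12 classes present in every pool given equal weight, the Malat1 difference was 0.72, with a two-sided exact permutation p of 0.0857 (the smallest possible is 0.0286) and 0.429 after adjustment over the 5 members.

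In D1 medium spiny neurons, Malat1 stood at 10653, 7627, 11302 and 12240 CPM in morphine pools 1 to 4, against 6053, 4649, 6276 and 8673 CPM in mock pools 1 to 4. One mock pool, the fourth, exceeded one morphine pool, the second. The log2 difference was 0.78 (SE 0.210) in D1 and 0.70 (SE 0.231) in D2 medium spiny neurons. In astrocytes Malat1 stood at 14896, 15570, 24054 and 27202 CPM with morphine, against 8107, 8662, 17421 and 18899 CPM with mock. Here both groups split by age, the older pools being high, and morphine was above mock within each age. The log2 difference was 0.71 (SE 0.247, adjusted p = 0.840 by edgeR's quasi-likelihood test with Benjamini-Hochberg adjustment), and with age class in the fit it was 0.76 with an adjusted p of 0.00184. In oligodendrocytes Malat1 stood at 18293, 11876, 23871 and 19269 CPM with morphine, against 10375, 6845, 15518 and 15520 CPM with mock, a log2 difference of 0.67 (SE 0.262). The groups overlapped through morphine pool 2, and this direction stands beside the -0.02 of the sorted oligodendrocytes, which differ in age, tissue and assay.

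In ependymal cells, which line the ventricle, Malat1 stood at 17848, 15274, 18881 and 16516 CPM with morphine, against 7437, 9531 and 13149 CPM in mock pools 1, 2 and 4, mock pool 3 having too few of these cells. All 4 morphine pools were above the mock pools. The log2 difference was 0.83 (SE 0.192, adjusted p = 0.240 by edgeR's quasi-likelihood test with Benjamini-Hochberg adjustment). It passed with age class in the fit (0.81, adjusted p = 0.0480) and with DESeq2 (adjusted p = 0.000600). In interneurons Malat1 stood at 6747, 4733, 8437 and 7213 CPM with morphine, against 3384, 3262, 3591 and 5367 CPM with mock, and mock pool 4 was the one value in the morphine range. The difference of 0.85 (SE 0.197) was the largest of the 15 classes, and the smallest was 0.35 in perivascular macrophages. The interneuron difference passed without mock pool 4 (1.05, adjusted p = 0.0306 by edgeR). It did not pass with any other pool left out, and over all 8 such fits it was 0.72 to 1.05. The share of all genes that passed in those fits is not given here. Summed over pools, interneurons had 5499 CPM of Malat1, below the 6748 CPM of red blood cells, so this level could not be told from background.

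Over the 15 classes the Malat1 difference had a median of 0.71. An unadjusted p under 0.05 was found in 10 of 15 classes, where 3.09% of all gene and class tests reached it. The pools did not overlap in 3 of 15 (dividing progenitors, ependymal cells and neuroblasts), where every morphine pool exceeded every mock pool in 0.894% of all tests. Over all 5 members, 0 of 62 member and class tests passed by edgeR's quasi-likelihood test, beside a background of 0.0169%, while 12 had an unadjusted p under 0.05 and DESeq2 called 1 of 73. For Malat1, 2 classes passed by edgeR with age class in the fit and 10 of 15 with replicate number as a block. The share of all gene and class tests that passed in those fits or with DESeq2 is not given here. The classes share their pools, so 15 classes are not 15 independent measurements. In the younger pools alone Malat1 was higher with morphine in 14 of 14 classes (0.50 to 1.30), and in the older pools alone in 13 of 13 (0.23 to 0.87). The treatment by age term had no adjusted p below 0.973 for Malat1. No member had a class by treatment term that passed (edgeR's quasi-likelihood test, background 0.0409%), and 0 of 5 had an unadjusted p under 0.05.

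Values of RNA quality moved with Malat1. The mean of the pools' median mitochondrial share was higher with morphine in 15 of 15 classes, and the pools did not overlap in 6 of 15, among them D1 and D2 medium spiny neurons, astrocytes and oligodendrocytes. The Malat1 difference over all cells was 0.72 with mitochondrial genes left out, but the part of cell quality in it was not tested. Red blood cells held 9307 CPM of Malat1 with morphine (95% exact Poisson interval 8710 to 9935, 39 cells) and 5512 CPM with mock (5192 to 5847, 84 cells), intervals that cover counting error only. That is a log2 difference of 0.76, with no test, in cells that have no nucleus, and by pool the values were 6830 to 12715 CPM with morphine and 1998 to 13389 CPM with mock, from 3 to 14 and 4 to 49 cells. The part of free RNA in the class differences was not tested.

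**Figure D4:**
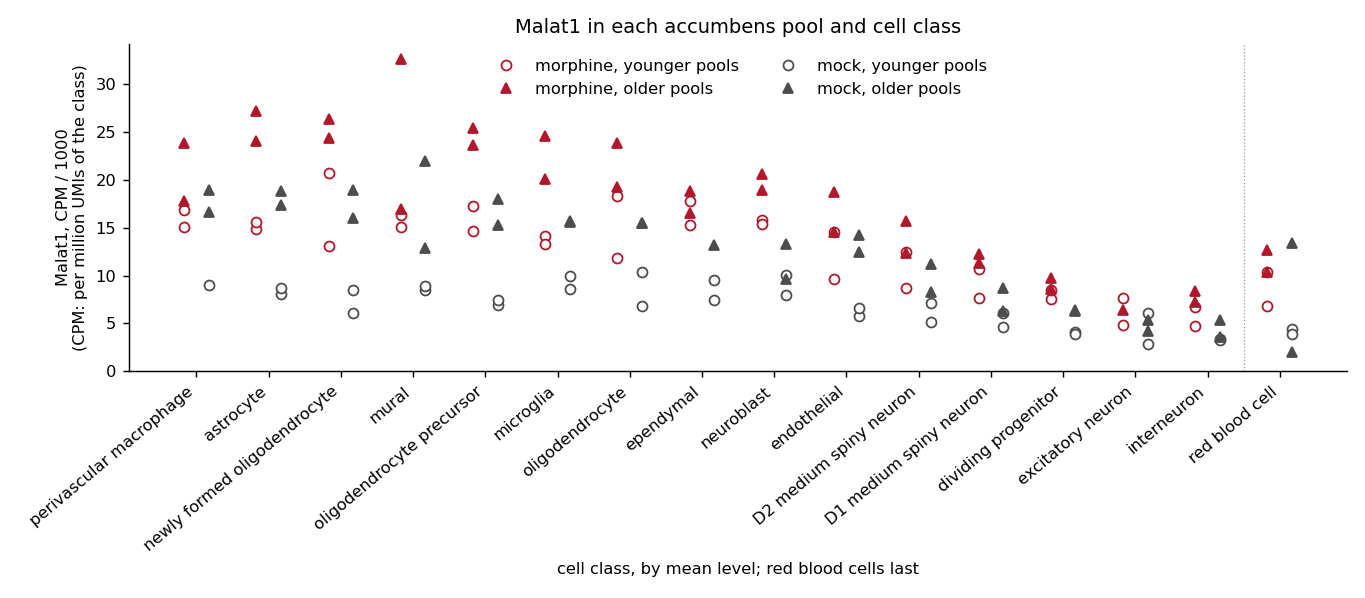
Malat1 in each pool with at least 10 cells of a class, in CPM divided by 1000, morphine in red and mock in grey, younger pools as open circles and older pools as triangles, with red blood cells (any number of cells) last. Morphine pools lie above mock pools of the same age in most classes, and older and younger pools overlap in all tested classes but astrocytes and microglia.

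Over all cells the other members had log2 differences below 0 with morphine, each smaller than its SE and none called. Each was higher in some classes and lower in others. Neat1 over all cells stood at 51.7, 51.5, 50.3 and 43.3 CPM with morphine, against 40.4, 85.3, 55.1 and 33.5 CPM with mock. The mock pools spanned the morphine pools, with a log2 difference of -0.04 (SE 0.238). Neat1 was tested in 10 classes and was higher in 3 and lower in 7, with a median of -0.07. In oligodendrocytes it stood at 147, 272, 113 and 355 CPM with morphine, against 102, 376, 292 and 313 CPM with mock. The pools of each group differed more than the groups did, and the log2 difference of -0.24 (SE 0.327, adjusted p = 0.998 by edgeR's quasi-likelihood test with Benjamini-Hochberg adjustment) had an error that also holds the -0.46 of the sorted cells. In astrocytes Neat1 stood at 153, 122, 94.4 and 181 CPM with morphine, against 85.1, 101, 119 and 112 CPM with mock, overlapping through morphine pool 3, with a log2 difference of 0.49 (SE 0.206, adjusted p = 0.999 by the same edgeR test).

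Meg3 over all cells stood at 2482, 1905, 1836 and 3010 CPM with morphine, against 2596, 1478, 2743 and 2955 CPM with mock. The groups covered the same range, with a log2 difference of -0.01 (SE 0.261). It was higher in 6 and lower in 9 of 15 classes, with a median of -0.03, and in D1 and D2 medium spiny neurons the difference was -0.03 in each (SE 0.217 and 0.242). Snhg11 over all cells stood at 995, 785, 852 and 1459 CPM with morphine, against 1200, 539, 1317 and 1425 CPM with mock, again overlapping throughout (log2 difference -0.06, SE 0.316). It was lower in 12 of 15 classes, with a median of -0.16.

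The widest Snhg11 difference was in neuroblasts, at 1011, 421, 270 and 370 CPM with morphine, against 832, 569, 1183 and 862 CPM with mock. Morphine pool 1 lay among the mock pools and the other 3 lay below them all. Summed over pools, neuroblasts had 585 CPM of Snhg11, below the 867 CPM of red blood cells, so this level too could not be told from background. The log2 difference was -0.91 (SE 0.317, adjusted p = 0.975 by edgeR's quasi-likelihood test with Benjamini-Hochberg adjustment). Miat over all cells stood at 16.6, 12.03, 10.8 and 25.6 CPM with morphine, against 26.2, 12.4, 23.7 and 19.8 CPM with mock, which overlap (log2 difference -0.24, SE 0.313). It was tested in 7 classes, higher in 2 and lower in 5, with a median of -0.22. In dividing progenitors, where it is highest, Miat stood at 37.6, 90.8, 105 and 211 CPM with morphine, from 2 to 76 UMIs, against 141, 144, 146 and 184 CPM with mock, from 10 to 48 UMIs. The mock pools were close together and the morphine pools lay on both sides of them.

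**Figure D5:**
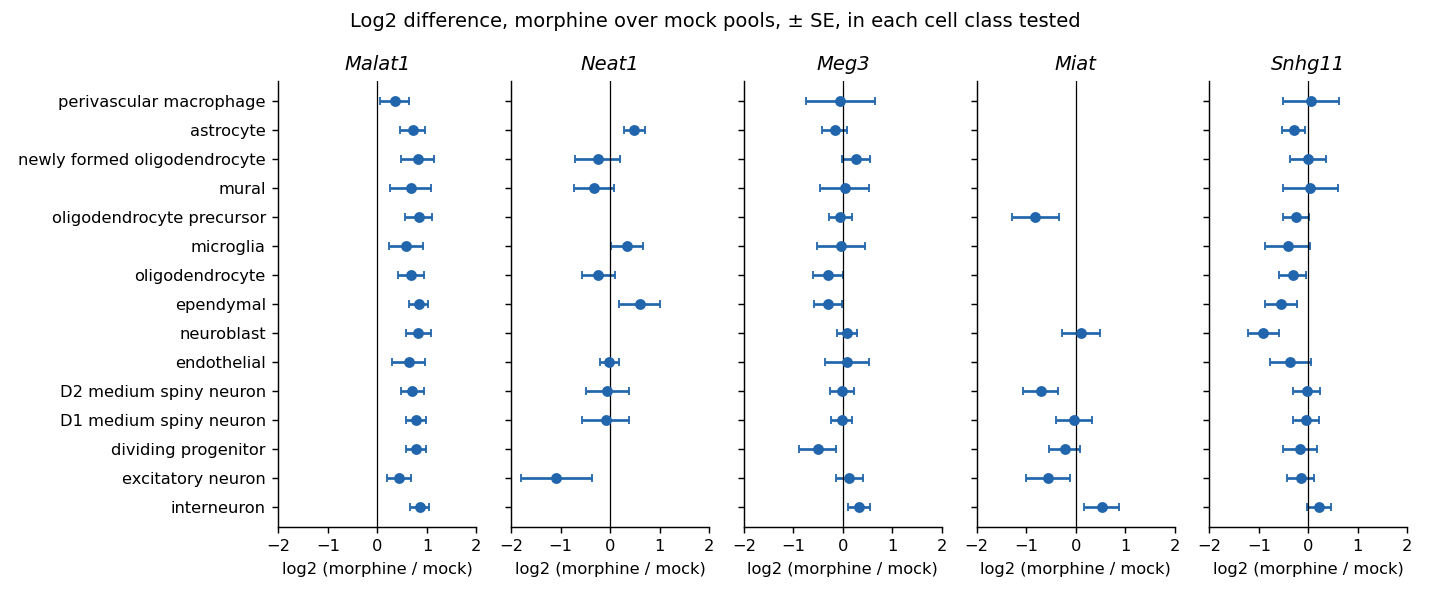
Log2 difference of morphine over mock pools (points, ± SE) for each member in each of the 15 classes where it was tested, with 0 marked by a line. All 15 Malat1 points are above 0, and the points of the other members lie on both sides of it.

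The share of cells with at least 1 UMI, with each cell thinned to 1000 UMIs, was compared in all cells and in 11 classes. Malat1 was read in 98.9 ± 0.399% of cells with morphine and in 96.5 ± 1.54% with mock (SD, n = 4 each), with no overlap. The two-sided exact permutation p was 0.0286, the smallest that 4 against 4 can give, and 0.429 after adjustment over 60 comparisons. None of the 60 passed, and 4 had an unadjusted p under 0.05, all for Malat1 and all higher with morphine (all cells, astrocytes, dividing progenitors and interneurons). Without thinning the Malat1 shares were 99.6% and 98.7%, and thinning left out 2122 morphine and 1935 mock cells under 1000 UMIs. At 500 UMIs, which left out 67 morphine and 78 mock cells, the Malat1 shares were 95.5 ± 1.34% with morphine and 89.3 ± 3.38% with mock (SD, n = 4 each), and the groups overlapped (exact permutation p = 0.0571, adjusted 0.531). Red blood cells, which should lack the RNA, had a UMI of Malat1 in 94.3% of 111 cells at 1000 UMIs (median of 1908 UMIs per cell before thinning, against 2143 in all cells). The Malat1 share was near its ceiling at 1000 UMIs. For Neat1 the shares were 5.51 ± 0.497% with morphine and 5.62 ± 1.87% with mock, against 1.04% in red blood cells and 20.7% in oligodendrocytes. For Meg3 they were 63.3 ± 8.08% and 65.3 ± 6.29%, for Snhg11 43.7 ± 6.11% and 46.0 ± 9.17%, and for Miat 1.46 ± 0.460% and 1.82 ± 0.554%, morphine before mock. Red blood cells had Meg3 in 66.1%, Snhg11 in 41.9% and Miat in 0.779% of cells.

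Malat1 was also compared between ages, and in 2 classes it passed the test, higher in the older pools. The older pools were set against the younger ones with treatment in the fit. In astrocytes Malat1 averaged 21894 ± 4540 CPM in older pools and 11809 ± 3970 CPM in younger pools (SD, n = 4 each), and all 4 older pools were above the younger ones. It rose by a log2 difference of 0.95 (SE 0.114, adjusted p = 0.000208 by edgeR's quasi-likelihood test with Benjamini-Hochberg adjustment), where 0.171% of genes of that class passed. In oligodendrocyte precursors, the dividing cells that give rise to oligodendrocytes, Malat1 stood at 23696 and 25424 CPM in older morphine pools, 15318 and 18040 CPM in older mock pools, 17324 and 14614 CPM in younger morphine pools and 6888 and 7427 CPM in younger mock pools. The older pools were above the younger ones within each treatment, and across treatments they overlapped. The difference of 0.88 (SE 0.186, adjusted p = 0.0201 by the same edgeR test) passed where 0.63% of genes did. Both calls were lost without treatment in the fit (adjusted p = 0.0906 in astrocytes and 0.161 in precursors, by edgeR), and the one in precursors also without morphine pool 4 (0.0551) or mock pool 1 (0.0894).

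With treatment in the fit the Malat1 difference was positive in 15 of 15 classes, from 0.15 in excitatory neurons to 0.99 in newly formed oligodendrocytes. In excitatory neurons the plain means were 5329 CPM in older pools and 5376 CPM in younger pools, in the other direction. In all, 2 of the 62 member and class tests passed, where 0.462% of all tests did. Over all cells the Malat1 difference was 0.58 (SE 0.191, adjusted p = 0.451 by edgeR's quasi-likelihood test with Benjamini-Hochberg adjustment). In that test 0% of 15331 genes passed, and 1635 had an unadjusted p under 0.05. Meg3 was lower in older pools in 9 of 15 classes and Snhg11 in 8 of 15, with 0 of these called. In D1 medium spiny neurons Meg3 and Snhg11 were 0.44 and 0.56 higher on the log2 scale. In oligodendrocytes, where their levels could not be told from background, they were 0.74 and 0.46 lower. A difference in litter or collection day between the age classes cannot be told apart from age. Pools numbered 1, both younger, also came with more gene symbols (24926 in mock and 24491 in morphine) than the other pools (19959 to 21682). The part of that difference in the age results was not tested.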

How the data were processed

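The accumbens tables hold UMI counts per gene and barcode, as deposited by the authors; per the submitters' processing notes STAR 2.4.2a, Trimmomatic 0.36, HTSeq, DESeq2 and mm10 were used, and the step each served is not given in the sources used here. The sorted-cell table holds read counts per gene from the authors, with the log2 fold changes and p-values of the authors' deposited comparison beside them. In it 69.5 to 74.3% of counts were in rows that name no gene, and these rows were left out. Barcodes with fewer than 300 genes or over 20% mitochondrial UMIs were dropped, the 5% with the highest doublet score in each pool were removed, and the rest were clustered (scanpy 1.11.5) and named from markers. Of the kept cells, 80 had a barcode found in more than 1 pool. Symbols present only in the pools numbered 1 were left out, 4932 in mock pool 1 (0.733% of its UMIs) and 4789 in morphine pool 1 (0.801%). Counts were summed per pool and class (at least 10 cells in at least 3 pools per group) and tested with edgeR 4.0.16 (quasi-likelihood, TMM, filterByExpr, Benjamini-Hochberg over all genes), a gene being called at an adjusted p under 0.05. DESeq2 1.42.0 was an alternative. The test was checked on simulated counts. The members and gene lists were chosen with earlier results of these data known. The text names the members, the 3 genes of each list with the smallest p in the sorted cells and the 3 genes most like each member, except 1 gene that is not reported here.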

Additional observations from a re-analysis of the deposited data

Results flagged for a closer look

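In 11 of 122 groups of 4 pools, 1 pool stood apart from the other 3 by more than Dixon's 95% critical value allows, where chance sets apart about 1 group in 20. For Malat1 these were mural cells of morphine pool 3, at 32695 CPM against 15130 to 16921 CPM in the other morphine pools, and interneurons of mock pool 4, at 5367 CPM against 3262 to 3591 CPM in the other mock pools. For Neat1 they were all cells of morphine pool 4, at 43.3 CPM against 50.3 to 51.7 CPM, and microglia of mock pool 2, at 64.7 CPM (13 UMIs) against 43.7 to 46.0 CPM. For Meg3 they were oligodendrocyte precursors of morphine pool 1, at 1261 CPM against 839 to 885 CPM, and dividing progenitors of mock pool 1, at 1266 CPM against 314 to 364 CPM. For Miat they were D1 medium spiny neurons of morphine pool 1, at 10.7 CPM (16 UMIs) against 5.33 to 6.14 CPM, and dividing progenitors of mock pool 4, at 184 CPM against 141 to 146 CPM. For Snhg11 they were ependymal cells of morphine pool 1, at 239 CPM (21 UMIs) against 124 to 141 CPM, and oligodendrocyte precursors of morphine pool 4, at 498 CPM against 337 to 364 CPM. Snhg11 in D1 medium spiny neurons of mock pool 2, at 637 CPM from 2384 UMIs against 1454 to 1512 CPM in the other mock pools, was the one of these read from the most UMIs after Malat1 in interneurons and mural cells.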

How the results depend on the processing

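In the sorted cells the Neat1 call held under every alternative run (-0.57 to -0.36 with 1 library left out). The number of members called, 2, became 1 with DESeq2 and 1 without the low-count filter, and was 1 to 3 with 1 library left out. Snhg11 was -0.21 with DESeq2 and -0.22 without the filter, and -0.28 to -0.19 with 1 library left out. Malat1 changed sign with DESeq2 (0.00736), and with 1 library left out Malat1 was -0.0520 to 0.0135, Meg3 -0.32 to -0.16 and Miat -0.42 to 0.32. The counts called over all genes were 1273 higher and 1048 lower, and 1142 and 705 with DESeq2. Library totals without TMM gave 1155 and 1183, so the split moved towards lower genes while Neat1 stayed at -0.49. The numbers of the sorted columns could not be matched to the samples' titles, so the planned replicate block was not run there.

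Over all accumbens cells no member was called under any alternative. Malat1 kept its direction (0.58 to 0.89 with 1 pool left out). Neat1 changed sign with the replicate block (0.0257) and in older pools alone (0.14), Meg3 with age class (0.00922), with the replicate block (0.00580) and in younger pools alone (0.19), and Snhg11 in younger pools alone (0.11). With 1 pool left out Neat1 was -0.20 to 0.26, Meg3 -0.20 to 0.13 and Snhg11 -0.30 to 0.11. The class tests called 0 members, against 1 with DESeq2, 3 without the filter, 2 with age class, 10 with the replicate block and 0 to 1 with 1 pool left out, all of them Malat1. The share of all gene and class tests called under each alternative is not given here, so these counts have no background beside them. The replicate numbers were not taken to pair the pools, although same-numbered pools share an age range and a number of barcodes (3000 or 6000). Same-numbered pools deviated together with r = 0.44, -0.09, -0.05 and 0.69, and pools 2 and 3 did not correlate best with their own number. In the age comparison the 2 class calls became 0 with age alone (Malat1 0.91 in astrocytes, 0.80 in precursors) and 1 to 6 with 1 pool left out (astrocytes 0.90 to 1.02, precursors 0.78 to 1.03), and Neat1 over all cells was -0.45 to 0.00227. The difference in share of cells, in percentage points, was -0.58 to 0.79 for Neat1, -4.68 to 1.68 for Meg3 and -6.73 to 0.24 for Snhg11 with 1 pool left out. The cause of these changes was not tested. The fits on 1 age, the treatment by age term, the class fits of age alone or with a pool left out and the shares with a pool left out were chosen after seeing the data. Depth limits Miat in most classes and Neat1 in neurons.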
